A study of Mus musculus with 8 samples.

Results

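The integrated stress response genes described here are 10 mouse genes: Atf4, Atf5, Ddit3, Nupr1, Trib3, Chac1, Asns, Psat1, Ddit4 and Sesn2. They were taken by name, as every non-control probe whose accession belongs to one of these symbols. The rule uses no measured value, but the set was picked with earlier results of these data known. This gave 12 of the 55681 probes on the array and 10 of the 20284 genes with a named probe. Atf4 and Psat1 had 2 probes each and the other members 1. All 10 genes passed the filter on dim probes and stood among the 14582 genes tested. For 9 of them the probe was well above background on all 8 arrays, by the scanner software's own flag. The exception was Psat1.

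The integrated stress response starts when kinases that sense amino acid shortage, unfolded protein, haem shortage or double-stranded RNA phosphorylate the initiation factor eIF2. Translation then falls in general, while the mRNA of the transcription factor ATF4 is translated more. ATF4 raises genes for amino acid synthesis and uptake, genes that restrain growth, and the factor CHOP (Ddit3). Since ATF4 and ATF5 are controlled largely at translation, their mRNA levels are an incomplete measure of their activity. In liver the response takes part in the adaptation to fasting and to a lack of amino acids. Hepatocytes are a main source of FGF21, a hormone whose gene ATF4 can raise.

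The study compared livers of C57BL/6J mice lacking TIS21 with wild-type livers, at 2 stages. TIS21 is also called BTG2 or PC3 and is a growth-restraining protein of the BTG/TOB family. Each genotype was sampled as adult and as fetal liver, which makes 4 groups. Adults were males of 10 weeks and all of them, wild type included, had been fasted for 20 h, so the series holds no fed adult. The fetal samples, of both sexes, were pools of livers from more than 3 fetuses of a womb at embryonic day 13.5, for which no fasting is named. Stage, fasting, sex and pooling therefore cannot be told apart in any comparison of adult with fetal liver. The promoter or exons removed in the knockout, and the number of adult mice behind each adult sample, are not given in the sources used here.

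Each RNA sample was hybridised to 2 one-colour arrays as technical duplicates, 8 arrays in all on 1 slide. Adjusted p-values below come from limma with Benjamini-Hochberg adjustment over all 14582 genes, and they reflect the spread between duplicate arrays alone, so that each tests 1 RNA sample against another and says nothing of the spread between animals. "Rose" and "fell" are used where the adjusted p was under 0.05 and the difference at least 2-fold. Levels are scaled log2 signals: from the log2 value of each probe the 75th percentile of its array was subtracted, so a level of 0 lies at that percentile. Levels of different probes are not comparable with each other. The probe of Btg2 itself passed the background flag on all 4 wild-type arrays and on none of the 4 knockout arrays. The knockout was lower by at least 7.63-fold in adults and at least 100.79-fold in fetal liver.

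Between 38.5% and 42.3% of probes were well above background on the adult arrays and between 48.7% and 61.1% on the fetal ones. All 9 tested hepatocyte markers were well above background on the 4 adult arrays, and 8 or 9 of them on each fetal array. Between adult genotypes none of the 9 passed the threshold by limma, and 8 had an unadjusted p under 0.05. Of their differences 1 was positive, and the median log2 difference was -0.17 against -0.1 over all genes. The log2 of their summed level was 12.97 to 12.99 in adult wild type and 12.67 in adult knockout. In bulk liver RNA, fewer cells of a type and less RNA per cell cannot be told apart. Markers of other cells moved with the groups. Of 13 macrophage and Kupffer cell markers 12 rose in the adult knockout, with a median log2 difference of 2.44, and the log2 of their summed level was 6.16 to 6.25 in adult wild type against 8.7 to 8.75 in adult knockout. In fetal liver none of the 13 passed the threshold by limma, 7 had an unadjusted p under 0.05, and that sum was 6.82 to 6.83 in wild type and 7.11 to 7.13 in knockout. All 12 erythroid markers were lower in adult than in fetal liver in either genotype, with sums of 9.03 to 9.29 in adults and 11.92 to 12.27 in fetal liver.

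The promoters of the members are shown where they hold the core of the C/EBP-ATF response element, the DNA site at which ATF4 and its partners are known to act on amino acid response genes. The core was searched as TGATGNAA on both strands, from 250 bases before to 50 after each RefSeq start in the GRCm38.p6 build, in the 12 promoters that RefSeq gives for the 10 genes. It stood in 4 of the 12, those of Asns, Trib3, Chac1 and Nupr1. Over all 32851 promoters of the same length 3.97% held it. Each stretch below is 30 bases on the strand of the gene, with the core in capitals. On the Asns stretch the core reads forward, and on the other three it is the reverse complement.
Asns: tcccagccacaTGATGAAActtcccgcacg
Trib3: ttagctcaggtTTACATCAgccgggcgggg
Chac1: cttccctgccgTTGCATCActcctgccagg
Nupr1: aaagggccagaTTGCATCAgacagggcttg
The Asns stretch lies at chr6:7693214-7693243 on the minus strand, with the core 23 bases before the start. That of Trib3 lies at chr2:152344028-152344057, minus strand, 14 bases after the start. Chac1's is at chr2:119351038-119351067, plus strand, with the core 193 bases before the start, and Nupr1's at chr7:126625562-126625591, minus strand, 110 bases before it. A search for TGACGTCA, the cAMP response element, matched none of the 12 promoters against 1.79% of all promoters. The endoplasmic reticulum stress element also matched none, against 0.119% of all. These matches describe letters in a window and no binding was measured.

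In fasted adult liver, 3 members fell and 1 rose in the knockout. Asns, the enzyme that makes asparagine, fell 5.52-fold, and the transcription factor Atf5 fell 2.97-fold. Psat1, an enzyme of serine synthesis, was the third to pass the threshold downward, from a signal already near background. Chac1, which degrades glutathione, rose 3.03-fold. Over all genes tested, 7.5% passed the same threshold, 4.97% upward and 2.53% downward. The median log2 difference of the 10 members was -0.51, and that of all genes tested was -0.1.

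In fetal liver no member passed the threshold, which 1.87% of all genes did, 0.459% upward and 1.41% downward. By limma, 3 members had an adjusted p under 0.05 with differences below 2-fold, namely Chac1, Trib3 and Ddit4, and 4 had an unadjusted p under 0.05. The members' median log2 difference was 0.06 against 0.0 over all genes.

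**Figure D1:**
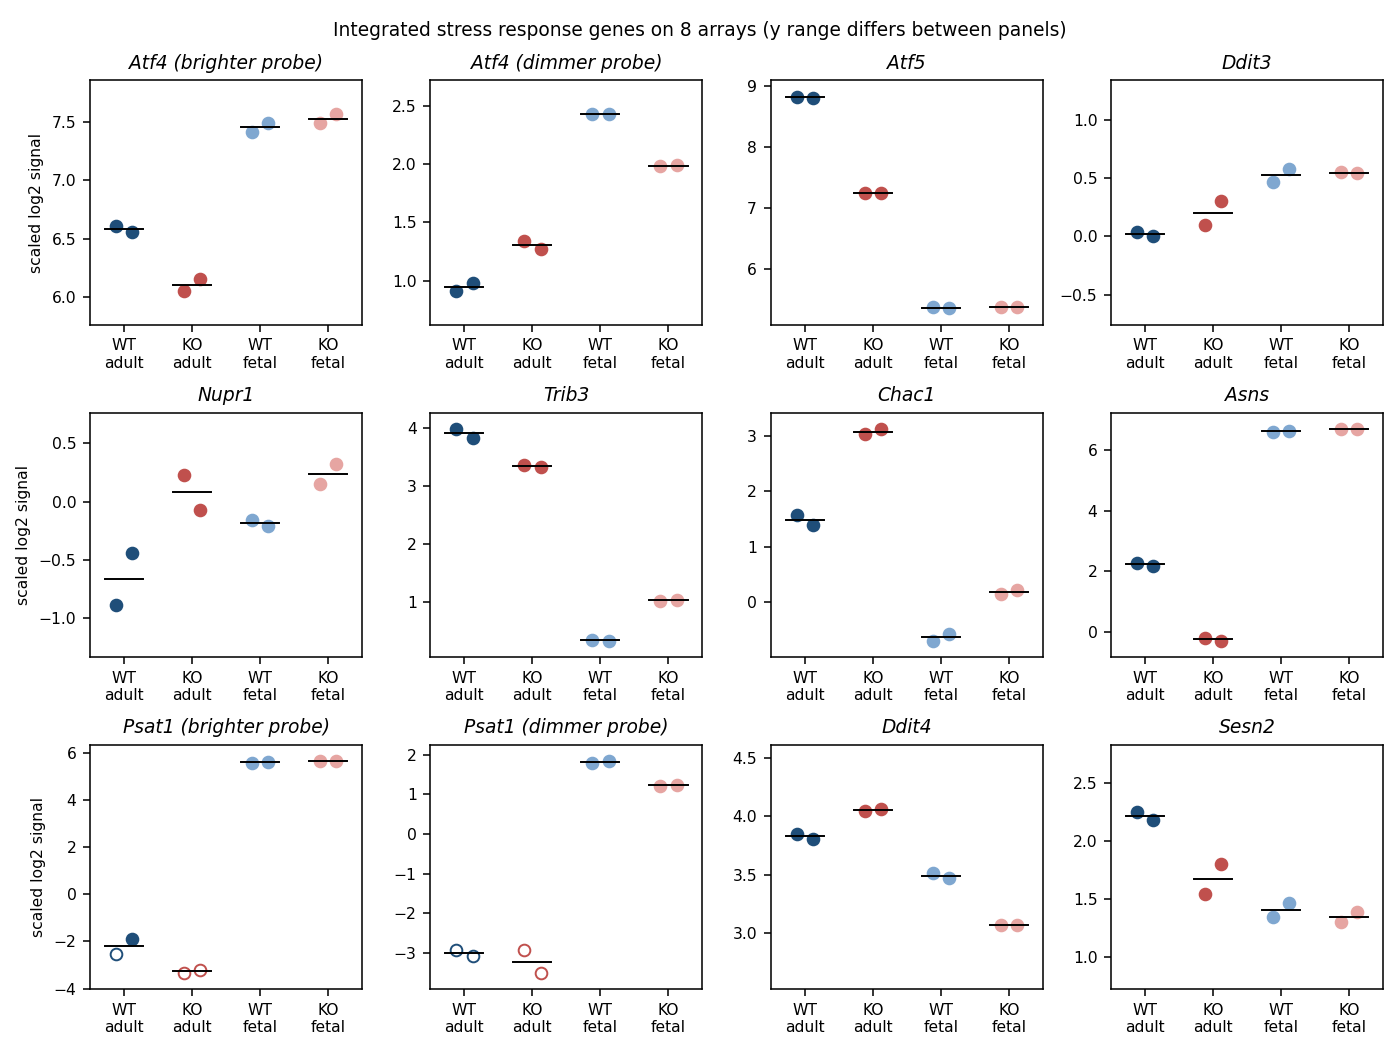
Scaled log2 signal (y axis, range differing between panels) of the 12 probes on the 8 arrays, by group on the x axis; each point is an array, filled where the probe was well above background and open where it was not, and the line is the mean of the 2 arrays of 1 RNA sample. Asns and Atf5 separate the adult genotypes far more than the fetal ones, both Psat1 probes lie near background in adults, and the Atf4 probes order the adult genotypes in opposite ways.

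The transcription factors come first. Atf4, the effector of the response, was read by a bright and a dim probe that disagreed. On the bright probe its scaled log2 signal was 6.61 and 6.56 in adult wild type, 6.05 and 6.15 in adult knockout, 7.42 and 7.49 in fetal wild type, and 7.49 and 7.57 in fetal knockout. Adult knockout was the lowest group, adult wild type the next, and the fetal arrays were the highest with the genotypes side by side. On the dim probe the same groups read 0.91 and 0.98, 1.34 and 1.27, 2.43 and 2.43, and 1.98 and 1.99. There the adult knockout lay above adult wild type and the fetal knockout below fetal wild type.

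The adult log2 difference of Atf4, knockout minus wild type, was -0.48 ± 0.047 (SE; adjusted p = 9.5e-05) on the bright probe and 0.36 ± 0.044 (adjusted p = 0.000409) on the dim one. In fetal liver the values were 0.08 ± 0.047 (adjusted p = 0.312) and -0.45 ± 0.044 (adjusted p = 0.00178). All 4 were below 2-fold. Because the probes changed sign in both genotype comparisons, no direction by genotype is given for Atf4 mRNA. The bright probe enters the counts here, by the rule of taking the probe with the highest mean.

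Atf5, a related bZIP factor that is abundant in liver, separated the adult genotypes more clearly. Its level was 8.83 and 8.81 in adult wild type against 7.24 and 7.25 in adult knockout. The fetal arrays read 5.37 and 5.35 in wild type and 5.38 and 5.37 in knockout, and these overlapped. Duplicate arrays thus differed by at most hundredths of a log2 unit, and the adult groups stood apart, at -1.57 ± 0.028 (adjusted p = 4.7e-08). The fetal difference was 0.02 ± 0.028 (adjusted p = 0.748).

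Ddit3 encodes CHOP, a factor that is linked to cell death under lasting stress. It read 0.04 and 0.0 in adult wild type, 0.1 and 0.3 in adult knockout, 0.47 and 0.58 in fetal wild type, and 0.55 and 0.54 in fetal knockout. The adult difference was 0.18 ± 0.084 (adjusted p = 0.109) and the fetal one 0.03 ± 0.084 (adjusted p = 0.867), with overlapping fetal arrays. Nupr1, a small stress-induced nuclear protein, read -0.89 and -0.44 in adult wild type and 0.23 and -0.07 in adult knockout. In fetal liver it read -0.16 and -0.21 in wild type and 0.15 and 0.32 in knockout. Its knockout arrays were the higher at both stages without overlap, by 0.75 ± 0.16 in adults (adjusted p = 0.00589) and 0.42 ± 0.16 in fetal liver (adjusted p = 0.118), neither of which reached 2-fold.

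Trib3 is a pseudokinase that ATF4 and CHOP induce and that restrains them in turn. Its level was 3.99 and 3.84 in adult wild type and 3.37 and 3.33 in adult knockout. Fetal wild type read 0.35 and 0.33 and fetal knockout 1.01 and 1.04. The knockout was thus the lower in adults, at -0.56 ± 0.052 (adjusted p = 7.69e-05), and the higher in fetal liver, by 0.69 ± 0.052 (adjusted p = 0.000472). Neither difference reached 2-fold.

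Among the enzymes, Chac1 had its highest level in adult knockout, 3.03 and 3.13, against 1.57 and 1.4 in adult wild type. Fetal knockout followed with 0.14 and 0.21, and fetal wild type was the lowest with -0.7 and -0.58. No group overlapped another. The knockout was higher by 1.6 ± 0.078 in adults (adjusted p = 3.36e-06) and by 0.82 ± 0.078 in fetal liver (adjusted p = 0.00117), the second of which is 1.76-fold.

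Asns read 2.27 and 2.18 in adult wild type and -0.19 and -0.29 in adult knockout. All 4 fetal arrays were far higher, at 6.61 and 6.63 in wild type and 6.7 and 6.7 in knockout. The adult difference of -2.46 ± 0.044 (adjusted p = 4.7e-08) was the largest among the members. The fetal difference was 0.08 ± 0.044 (adjusted p = 0.252). Of the 4 members whose promoters hold the core motif, Asns and Trib3 (-0.56) were lower in the adult knockout. The other members of that set, Chac1 and Nupr1 (0.75), were higher. The differences of Trib3 and Nupr1 were below 2-fold, and the part of the motif was not tested.

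Psat1 was bright in fetal liver and dim in adult liver. Its brighter probe read 5.57 and 5.61 in fetal wild type and 5.64 and 5.63 in fetal knockout, against -2.53 and -1.9 in adult wild type and -3.34 and -3.2 in adult knockout. Of the 4 adult arrays a single one, the second of wild type, was well above background. On the brighter probe the adult knockout was at least 1.24-fold lower, with a fitted difference of -1.06 ± 0.18 (adjusted p = 0.00149). Without that array the difference was -0.74, and without the first knockout array it was -0.98. Neither then passed the threshold. Its dimmer probe was above background on no adult array and gave -0.21 ± 0.178 (adjusted p = 0.381). The fetal differences were 0.04 ± 0.18 (adjusted p = 0.915) and, on the dimmer probe, -0.59 ± 0.178 (adjusted p = 0.0712).

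Ddit4 (REDD1) and Sesn2 (sestrin 2) are stress-induced inhibitors of the growth kinase complex mTORC1. Ddit4 read 3.85 and 3.81 in adult wild type, 4.05 and 4.06 in adult knockout, 3.51 and 3.47 in fetal wild type, and 3.07 and 3.07 in fetal knockout. The knockout was higher in adults by 0.23 ± 0.029 (adjusted p = 0.000348) and lower in fetal liver, at -0.42 ± 0.029 (adjusted p = 0.000395). Sesn2 read 2.25 and 2.18 in adult wild type and 1.54 and 1.8 in adult knockout, a difference of -0.54 ± 0.088 (adjusted p = 0.00132). Its fetal arrays, 1.35 and 1.47 in wild type and 1.3 and 1.39 in knockout, overlapped. None of these differences reached 2-fold.

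**Figure D2:**
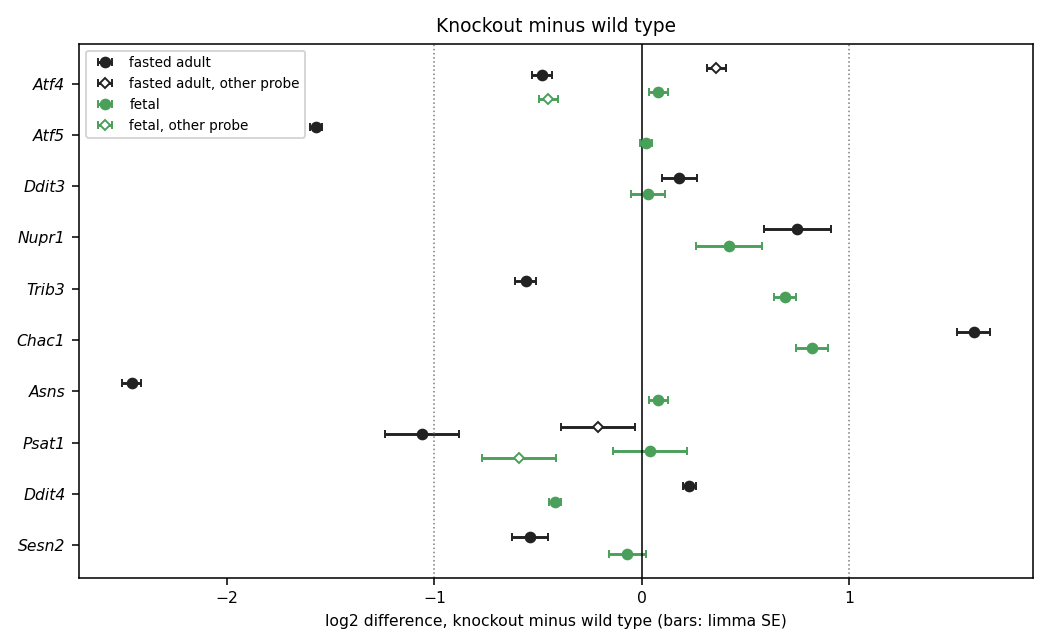
Log2 difference between knockout and wild type (x axis) for each member (y axis) in fasted adult liver (black) and fetal liver (green); circles are the tested probe, open diamonds the other probe of Atf4 and Psat1, bars the limma standard error, and dotted lines mark 2-fold. Asns at -2.46, Atf5 at -1.57, Psat1 at -1.06 and Chac1 at 1.6 lie past the dotted lines in adults, and no fetal value does; the adult Psat1 values rest on signals near background.

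The difference between the stages was tested by the interaction term, the adult knockout effect minus the fetal one. Over all genes 9.72% passed the threshold in it, 6.19% with a positive and 3.54% with a negative value. Of the members 4 did, each in the negative direction: Asns at -2.54 ± 0.062 (adjusted p = 6.35e-07), Atf5 at -1.59 ± 0.04 (adjusted p = 6.35e-07), Trib3 at -1.24 ± 0.074 (adjusted p = 1.64e-05) and Psat1 at -1.09 ± 0.25 (adjusted p = 0.00797). Trib3 passed because its adult and fetal differences have opposite signs. Its interaction was -0.97 with normexp background correction and -1.09 with median scaling (adjusted p = 0.0913), and did not pass in either. The Psat1 value rests on the dim adult signals, was -0.78 without the second adult wild-type array, where it did not pass, and was 0.38 on the dimmer probe. Chac1 moved the same way at both stages, with an interaction of 0.78 ± 0.11 (adjusted p = 0.000842) that was under 2-fold. The fetal values of Asns and Atf5 lay within 0.08 log2 units of no difference, so that their interaction is nearly the adult difference itself.

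Adult and fetal liver differed more than the genotypes did. Over all genes 55.0% passed the threshold between adult and fetal wild type and 53.4% between adult and fetal knockout, so that the members' counts of 5 and 6 of 10 are near the background. In wild type 27.0% of all genes were higher and 28.1% lower in adults, and in knockout 25.7% and 27.6%. Atf5, Trib3 and Chac1 were higher in adult liver in both genotypes. Asns and Psat1 were lower in adult liver in both. These comparisons share their samples with those between genotypes and are not independent of them.

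In wild type, Trib3 was 11.89-fold and Atf5 10.96-fold higher in adult liver, with log2 differences of 3.57 ± 0.052 (adjusted p = 2.33e-10) and 3.45 ± 0.028 (adjusted p = 1.4e-11). Chac1 was 4.37-fold higher. Asns was 21.08-fold lower in adult liver, at -4.4 ± 0.044 (adjusted p = 3.21e-11). Psat1 was lower, with a fitted difference of -7.81 ± 0.18 (adjusted p = 2.6e-09), with 1 of the 2 adult arrays above background. Its dimmer probe gave at least 17.2-fold. All 9 hepatocyte markers were higher and all 12 erythroid markers lower in adult than in fetal liver, and the part of cell composition in the members' values was not tested.

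In knockout liver the adult to fetal gap was wider for Asns, at -6.94 ± 0.044 or 122.9-fold (adjusted p = 5.86e-12), and narrower for Atf5, at 1.87 ± 0.028 (adjusted p = 3e-10), and for Trib3, at 2.33 ± 0.052 (adjusted p = 2.8e-09). Psat1 was at least 284.23-fold lower in adult knockout, and at least 13.45-fold on its dimmer probe. Chac1 was 7.5-fold higher. Atf4 passed the threshold in this comparison on its bright probe, at -1.43 ± 0.047 (adjusted p = 2.68e-08), but not on the dim one, at -0.68 ± 0.044 (adjusted p = 2.61e-06). In wild type it was the dim probe that passed, at -1.49 ± 0.044 (adjusted p = 2.28e-08), and not the bright one, at -0.87 ± 0.047 (adjusted p = 5.55e-07), so that the wild-type count would be 6 with the dim probe. Both Atf4 probes were lower in adult than in fetal liver in both genotypes. Ddit4 was 1.98-fold higher in adult knockout than in fetal knockout, just short of the threshold.

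**Figure D3:**
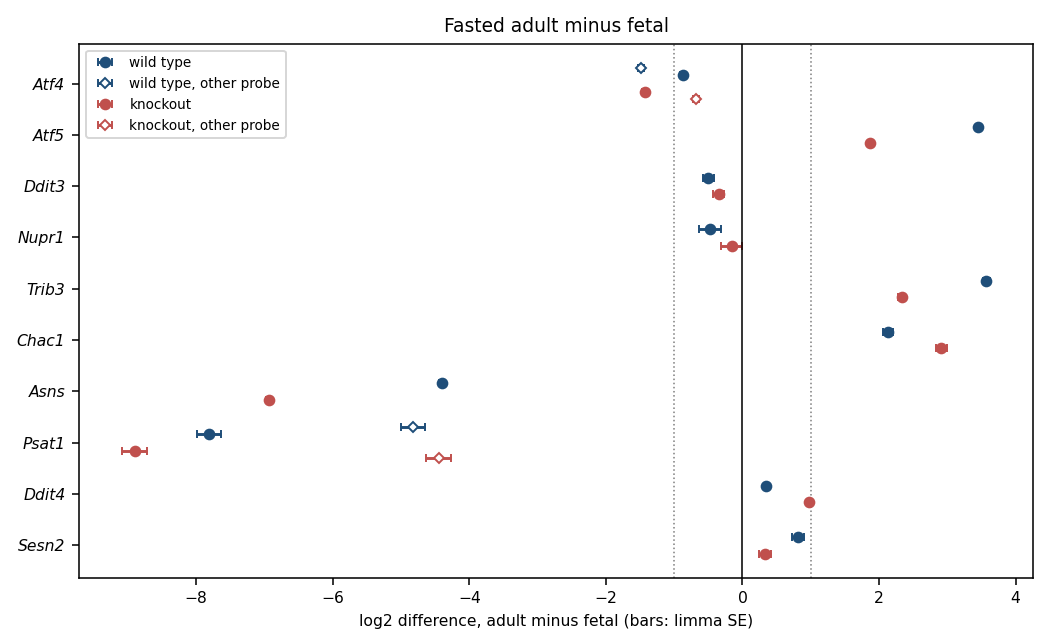
Log2 difference between fasted adult and fetal liver (x axis) for each member (y axis) in wild type (blue) and knockout (red); circles are the tested probe, open diamonds the other probe of Atf4 and Psat1, bars the limma standard error, and dotted lines mark 2-fold. Atf5, Trib3 and Chac1 lie to the right and Asns and Psat1 far to the left in both genotypes; the Psat1 values rest on adult signals near background.

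The wider pathway was described by lists of genes that exclude the members. Over all genes tested, 4.97% rose and 2.53% fell in the adult knockout. The 16 tested genes for the eIF2 kinases, the eIF2 phosphatase subunits and eIF2 with its exchange factor lay close to all genes between the adult genotypes. None passed the threshold by limma, with a median log2 difference of -0.16 and 14 at an unadjusted p under 0.05. The furthest was Impact, an inhibitor of the kinase GCN2, at -0.76 ± 0.037 (adjusted p = 3.51e-06). Its other probe gave -1.44 ± 0.58 and did not pass (adjusted p = 0.0824). The mean of both probes did pass, at -1.1 ± 0.27 (adjusted p = 0.0119). Between adult and fetal wild type 5 of the 16 were lower in adults, near the 28.1% of all genes that were lower. None was higher, where 27.0% of all genes were. Ppp1r15a, which encodes the stress-induced phosphatase subunit GADD34, was lower, at -3.26 ± 0.028 (adjusted p = 1.7e-11) in wild type and at -3.89 ± 0.028 (adjusted p = 9.4e-12) in knockout. The kinase genes Eif2ak1 (HRI) and Eif2ak4 (GCN2) were lower in adult wild type, at -1.51 and -1.32.

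Of 12 tested genes for the synthesis of serine, glycine and other amino acids, 1 fell in the adult knockout, Got1 at -1.09 ± 0.034 (adjusted p = 4.69e-07), and the median was -0.02. Got1, an aspartate aminotransferase, fell short of 2-fold under 5 of the alternative settings, where it was between -0.97 and -0.88. Between adult and fetal wild type 7 of the 12 were higher and 5 lower, beside 27.0% and 28.1% of all genes. Phgdh, which opens the serine pathway in which Psat1 acts next, was lower in adult wild type, at -8.62 ± 0.078 (adjusted p = 2.15e-11), with 1 of 2 adult arrays above background. In the adult knockout Phgdh was higher than in adult wild type by 0.64 ± 0.078 (adjusted p = 0.000309), under 2-fold. Its other probe gave 1.44 ± 0.23 (adjusted p = 0.00172) and the mean of both 1.04 ± 0.14 (adjusted p = 0.000539). Both of these passed the threshold upward. Mthfd2, a mitochondrial folate enzyme, was at least 21.52-fold lower in adult wild type than in fetal wild type. The mainly hepatic glutaminase gene Gls2 was higher in adults by 6.95.

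None of 10 tested amino acid transporter genes passed the threshold by limma between the adult genotypes, with 4 at an unadjusted p under 0.05. Slc1a4, a neutral amino acid transporter, was nearest at -0.8 ± 0.028 (adjusted p = 7.51e-07). Between adult and fetal wild type 2 were higher and 4 lower in adults, beside 27.0% and 28.1% of all genes. The glutamine transporter gene Slc38a3 was higher by 6.95, and Slc7a1, for a cationic amino acid transporter, was at least 53.19-fold lower. Of 20 cytosolic aminoacyl-tRNA synthetase genes 1 fell in the adult knockout, Dars for aspartate at -1.36 ± 0.069 (adjusted p = 3.83e-06). Their median was -0.06. In adult wild type 5 of the 20 were lower than in fetal wild type and 1 was higher, beside 28.1% and 27.0% of all genes.

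Of 19 other ATF4 or CHOP targets and bZIP partners, 2 passed the threshold upward and 2 downward in the adult knockout. Of the 19 differences 6 were positive, and the median was -0.11 against -0.1 over all genes. Fgf21, the fasting hormone, was well above background on both adult wild-type arrays and on neither adult knockout array. The adult knockout was lower by at least 31.69-fold (adjusted p = 1.39e-06). Adult wild type was at least 103.24-fold higher than fetal wild type (adjusted p = 1.54e-08). Vldlr, a lipoprotein receptor, fell by 1.62 on the log2 scale, but with the mean of its probes the value was -0.77 and with normexp background correction -0.82. Batf3, a bZIP factor known from dendritic cells, rose by 1.72 ± 0.088 (adjusted p = 4.02e-06). Ero1a, an oxidase of the endoplasmic reticulum, was higher by 1.04 ± 0.11 (adjusted p = 0.000144). Its value was 0.35 with normexp background correction and between 0.93 and 0.99 without the second adult wild-type or the second adult knockout array, each short of 2-fold.

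The ATF6 and XBP1 arms of the unfolded protein response run beside the ATF4 arm and raise chaperones and degradation factors of the endoplasmic reticulum. Of 22 tested genes 18 had positive adult differences, with a median of 0.42 against -0.1 over all genes, but 2 passed the threshold. These were Hyou1, a chaperone, at 1.31 ± 0.17 (adjusted p = 0.000446; 0.54 with normexp background correction), and Creld2, a secreted reticulum protein, at 1.1 ± 0.03 (adjusted p = 2.88e-07). In adult against fetal wild type 12 of the 22 were higher and none lower, with a median of 1.04. Over all genes 27.0% were higher and 28.1% lower. Dnajc3, Edem1 and Syvn1 were higher by 2.35, 2.22 and 2.17. In knockout 14 were higher, with a median of 1.32, where 25.7% of all genes were higher. In fetal liver none of the genes in these 6 lists passed the threshold between genotypes by limma, with 4 to 10 per list at an unadjusted p under 0.05. The rise of macrophage markers in the adult knockout stood beside all adult genotype values above, and its part in them was not tested.

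**Figure D4:**
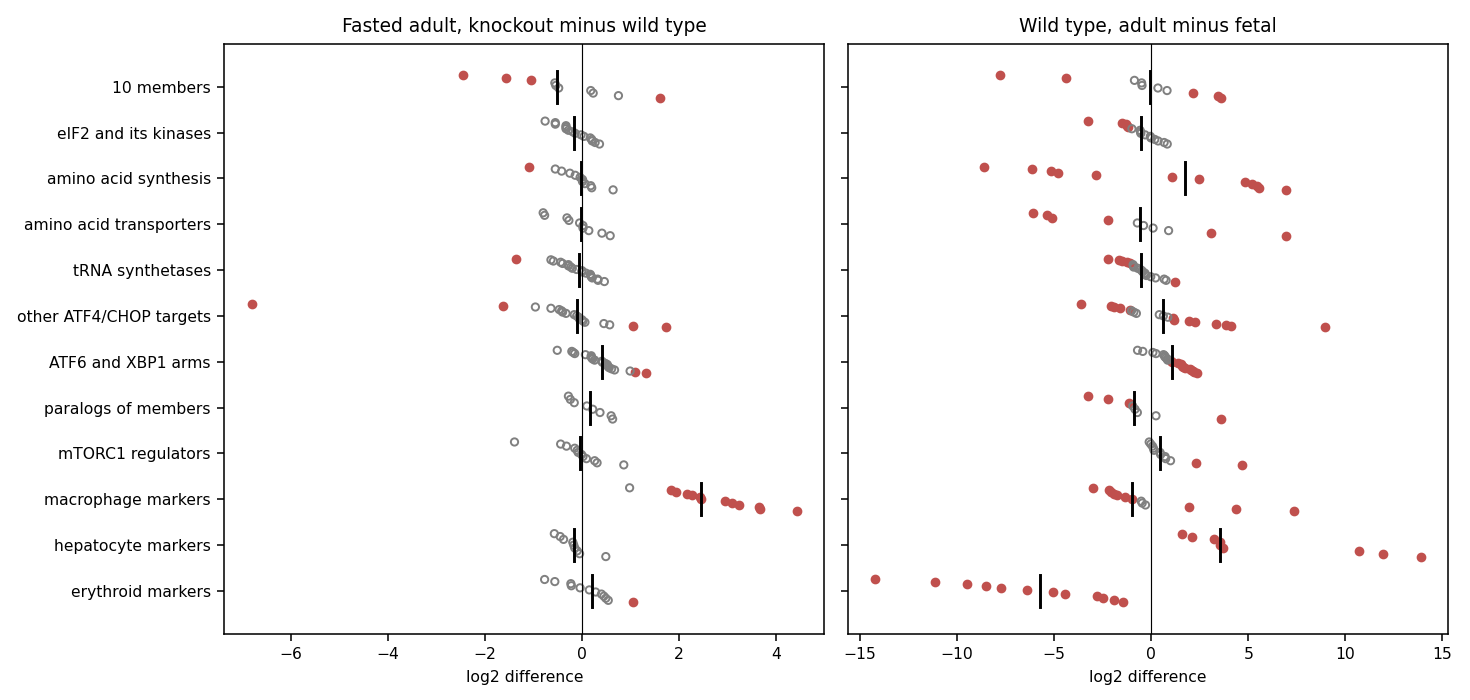
Log2 differences (x axis) of the 10 members and of the genes of 11 lists (y axis), knockout minus wild type in fasted adults on the left and adult minus fetal in wild type on the right; each point is a gene, red where it passed the threshold and grey where it did not, and black bars are medians. On the left the pathway lists have medians from -0.16 to 0.42, the highest being that of the ATF6 and XBP1 arms, while the macrophage markers centre at 2.44. On the right the erythroid markers lie far to the left and the hepatocyte markers to the right.

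Profiles most like those of the members were sought among the 10607 other genes well above background on all 8 arrays, by the root mean square distance of centred log2 levels over the 8 arrays, which come from 4 RNA samples. The closest to Atf5 were Clstn3 at 0.06, H3c15 at 0.07 and As3mt at 0.09. Asns had no close match, its nearest being Klf1 at 0.64, Cdkn1c at 0.66 and H3c14 at 0.74. Between adult genotypes these neighbours differed by -0.77, -0.73 and -0.55, against -2.46 for Asns. Klf1 is known as a master factor of red cell development. Chac1 was nearest to Cd300ld at 0.26, Pirb at 0.34 and Mmp15 at 0.35, of which Cd300ld and Pirb are known from myeloid cells. Trib3 was nearest to Parp3 at 0.14, Atxn7 at 0.15 and Tnfrsf9 at 0.16. With 4 samples many genes share a profile, and the distances are a description. The part of cell composition in these profiles was not tested.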

How the data were processed

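Per the labels' protocols, total RNA was labelled with Cy3, and per the file headers the 8 one-colour arrays shared 1 slide and 1 scan, with spots quantified by Agilent Feature Extraction. The deposited scanner output held processed, median and local background intensity on a linear scale for each spot. The deposited value table held intensities on a common scale (median 18.1 and 75th percentile 184.6 in each column), linear, uncentred and in the direction of the scanner signal; how it was normalized is not given in the sources.

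From the processed intensity, log2 was taken and the 75th percentile of non-control probes subtracted. Outlier-flagged spots (92 to 188 per array) were missing and none was saturated. Probes were named through their accessions in RefSeq's GRCm38.p6 table: 26762 had a symbol and 28919 did not. The files' own grid names another build, so coordinates are given for RefSeq promoters only. A probe was tested if both arrays of some group had it well above background, and a gene was read by its brightest such probe. limma 3.58.1 in R 4.3.3 fitted the 4 groups over 8 arrays (lmFit, eBayes with trend), and the script was tested on simulated data. Where the dimmer group was below background on both arrays, "at least" gives the fold against the array's lowest signal well above background. Number of arrays limits the precision.

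Duplicates correlated at r of 0.9921 to 0.9969 over tested genes, with the widest spread in adult wild type. Groups occupied different columns of the slide, which cannot be told apart from them; each group's first array lay in row 1 and its second in row 2. Same-numbered arrays of different groups did not deviate together (correlations of -0.144 to 0.077), so no pairing was assumed.

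The members and lists were chosen with earlier results of these data known. All members and probes are named; of each list, up to 4 genes with the largest difference among those past the threshold were eligible, or up to 2 as values where none passed. Promoters were searched as the report says, with the endoplasmic reticulum stress element as CCAAT and CCACG at its usual spacing. The alternatives were normexp background correction with offset 50, scaling to the median or to detected probes, quantile normalization, the deposited value table, the mean of a gene's probes, no filter on dim probes, the replicate block, other fits and leaving out each array. The other probe of a gene was added after seeing the data. The nearest profile of Ddit3 is not reported here.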

Additional observations from a re-analysis of the deposited data

Results flagged for a closer look

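Interaction terms past the threshold marked 4 members whose knockout effect differed between adult and fetal liver. Over all genes tested 9.72% passed in this term, 6.19% with a positive and 3.54% with a negative value. The adult minus fetal effect was -2.54 for Asns, -1.59 for Atf5, -1.24 for Trib3 and -1.09 for Psat1 on the log2 scale. The Psat1 value rests on adult signals near background, and Trib3 did not pass with normexp background correction or median scaling. Each term compares 4 RNA samples, so the spread between animals was not measured.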

How the results depend on the processing

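Under 19 other settings of the processing, 16 of the 19 member differences that passed the threshold kept their sign and their side of it in each. The exceptions were Psat1 between adult genotypes and Psat1 and Trib3 in the interaction. With the other probe of a gene, added after seeing the data, Atf4 between adult and fetal knockout also no longer passed (-0.68). The interaction count of 4 members became 2 with normexp background correction and 2 with median scaling. Over all genes the interaction calls went from 1418 to 473 and 1055. The count of 5 members between adult and fetal wild type became 8 with median scaling, where Atf4 (-1.57), Ddit3 (-1.2) and Nupr1 (-1.18) passed. There the calls over all 14582 genes went from 8025 to 8864, and those lower in adults from 4091 to 6355. With the replicate block the members' counts stayed 4, 0, 4, 5 and 6, in the order adult genotypes, fetal genotypes, interaction, wild type and knockout by stage. Leaving out 1 array gave 3 to 4, 0 to 0, 3 to 4, 5 to 5 and 6 to 6. Psat1 between adult genotypes was -0.34 with normexp, -0.86 with median scaling, -0.92 with detected-probe scaling and -0.63 with the mean of its probes.

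Some signs changed. Between fetal genotypes Atf4 was -0.01 with quantile normalization and the value table, -0.19 with the mean of its probes and -0.45 on the other probe. Atf5 was -0.01 with detected-probe scaling, -0.05 with quantile normalization and -0.04 with the value table. Ddit3 was -0.02 with normexp and -0.03 without the first fetal wild-type array, and without the second it was 0.08. Psat1 was -0.02 with quantile normalization and the value table, -0.28 with the mean of its probes and -0.59 on the other probe. Between adult genotypes Atf4 was 0.36 on the other probe. In the interaction Atf4 was 0.13 with the mean of its probes and 0.81 on the other probe, and Psat1 0.38. Between adult and fetal wild type Ddit4 was -0.01 with normexp, -0.36 with median scaling, -0.08 with detected-probe scaling and -0.09 with quantile normalization and the value table, and Ddit4l, below background on both adult arrays, went from -1.17 to 0.42 with normexp. Between adult and fetal knockout Sesn2 was -0.21 with median scaling. The cause was not tested.

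Scaling moved all genes. The median difference between adult and fetal wild type went from -0.023 to -0.719 with median scaling and -0.442 with detected-probe scaling, and the share of calls that were higher from 49.0% to 28.3% and 35.6%. Between adult genotypes that share was 66.2%, and 78.0% and 78.4% with these scalings. With normexp the adult calls over all genes went from 1093 to 353 and the fetal ones from 273 to 67. Signal near background limits Psat1 in adults, and 2 arrays of 1 RNA sample limit all comparisons to these 4 samples.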

Other observations

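Of the 8 tested paralogs of the members none passed the threshold between genotypes at either stage by limma, with 5 in adults and 2 in fetal liver at an unadjusted p under 0.05. The sestrin gene Sesn1 was 0.6 ± 0.048 higher in the adult knockout (adjusted p = 3.49e-05), while Sesn2 was lower there. The pseudokinase gene Trib1, like Trib3, was higher in adult than in fetal liver, by 3.58 in wild type and 3.53 in knockout. Trib2 was at least 4.95-fold lower in adult than in fetal wild type, but did not pass with normexp background correction. Of the 12 tested mTORC1 and growth arrest regulators none passed between genotypes by limma, with 7 in adults and 4 in fetal liver at an unadjusted p under 0.05. Between adult and fetal wild type 2 were higher, beside 27.0% of all genes. These 2 were the mTOR inhibitor gene Deptor, by 4.66, and Txnip, by 2.3.

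Among the macrophage markers, lysozyme Lyz2 rose in the adult knockout by 4.43 ± 0.079 (adjusted p = 4.7e-08) and the scavenger receptor gene Marco by 3.64 ± 0.048 (adjusted p = 1.81e-08). Over all genes tested 4.97% passed the threshold upward there and 2.53% downward. Of 6 tested intestinal epithelium markers 3 passed upward and 2 fell. The 3 higher ones, Muc13, Krt20 and Vil1, were not well above background on either adult wild-type array, were at least 2.06-fold, 2.77-fold and 1.07-fold higher, and did not pass with normexp background correction. The log2 of the summed level of the 6 markers was 8.16 to 8.19 in adult wild type and 6.79 to 6.83 in adult knockout. Of 7 stellate cell and fibroblast markers 3 rose. The log2 of the summed level of all 7 was 7.06 to 7.11 in adult wild type and 6.71 to 6.79 in adult knockout. Of 5 neutrophil markers 2 rose, of 6 endothelial markers 1 rose, and of 5 platelet markers none passed by limma, with 3 at an unadjusted p under 0.05.

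The profile nearest to Atf4 was that of Ppp1cc at a distance of 0.03, nearest to Nupr1 that of Aldh3b1 at 0.13, to Ddit4 that of Epop at 0.04 and to Sesn2 that of 9130401M01Rik at 0.07.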
